A study of Mus musculus with 12 samples.

Results

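Brown adipose tissue (BAT) of mice on a high-fat diet (HFD) was compared with BAT of mice on a normal chow diet (NCD), both gavaged with vehicle (veh). The comparison used 2 of the 12 RNA-seq libraries of the series, HFD-veh BAT and NCD-veh BAT, and 10444 of 22276 genes, those at an FPKM of at least 1 in either library. FPKM counts fragments per kilobase of exon, scaled to library size, so levels of different genes are compared per length. The mice were male C57BL/6J of 17 wk, the HFD began at 8 wk of age and weekly gavage of vehicle (a hydroxypropyl cyclodextrin solution) at 10 wk. The third BAT library, HFD-ncls, came from HFD mice gavaged with narciclasine (ncls), a plant alkaloid, and its values are given beside the others. The other 9 libraries are white adipose tissue (WAT), liver and quadriceps muscle of the same 3 groups. Each group had 1 library per organ, and the number of mice behind a library is not given in the sources used here. No replicate error exists, so no test was made and each difference describes these libraries.

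Brown adipocytes burn fatty acids in many mitochondria and release the energy as heat through uncoupling protein 1 (Ucp1). Noradrenaline from sympathetic nerves starts this through beta-adrenergic receptors and cyclic AMP, which also switches on fast-responding transcription factors. The tissue also makes fatty acids from glucose, and it lies against skeletal muscle between the shoulder blades.

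The BAT libraries carried the markers of their label. Ucp1 stood at 770 FPKM in NCD-veh against 768 in HFD-veh, with 740 in HFD-ncls, against 2.86 and 2.38 in the vehicle WAT libraries. The 8 brown adipocyte markers summed to 8227 FPKM in NCD-veh against 9129 in HFD-veh, with 10120 in HFD-ncls. Cox8b and Cox7a1, also abundant in muscle, held most of these sums. They were at 4380 and 1546 FPKM in NCD-veh against 5142 and 2085 in HFD-veh. Of the other markers, Cidea and Elovl3 were lower in HFD-veh, Ucp1 was level, and the weakly expressed Dio2, Zic1 and Prdm16 were slightly higher. All 3 mesothelial markers were at 0 in HFD-veh and HFD-ncls, and summed to 0.0183 FPKM in NCD-veh. The 8 skeletal muscle markers were present and unequal, at 1785 FPKM in NCD-veh against 776 in HFD-veh, with 106 in HFD-ncls. The low FPKM values pointed to about 25900000 fragments in NCD-veh and 25000000 in the other BAT libraries, so depth was close to equal.

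Muscle-enriched genes were set apart. They are the 301 genes with a mean of at least 10 FPKM in the 3 muscle libraries that was also 20 times or more above the median over the 9 libraries of other organs, and 201 of them reached 1 FPKM in vehicle BAT. Differences are log2 ratios of (FPKM + 0.1), HFD-veh over NCD-veh, and a gene counts as higher or lower at a ratio of 2-fold or more. Among the 10243 other genes, 236 (2.3%) were higher and 122 (1.19%) lower in HFD-veh, 3.5% in either direction, with a median log2 difference of -0.04. Of the muscle-enriched genes, 88 (43.8%) were lower and 2 (0.995%) higher, 44.8% in either direction, with a median of -0.85. The central 95% of the other genes at 20 to 100 FPKM lay between -0.78 and 0.95, and at 1 to 5 FPKM between -0.77 and 1.04. WAT differed more widely between the diets, with 9.11% of genes over 2-fold in either direction against 5.12% in liver, 4.29% in BAT and 4.11% in muscle. These shares include transcripts typical of other organs. From NCD-veh to HFD-veh, the muscle gene Ckm went from 0 to 10.3 FPKM in liver. Alb, a hepatocyte marker, went from 0.5 to 224 FPKM in quadriceps. Their part in the shares was not tested.

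**Figure D1:**
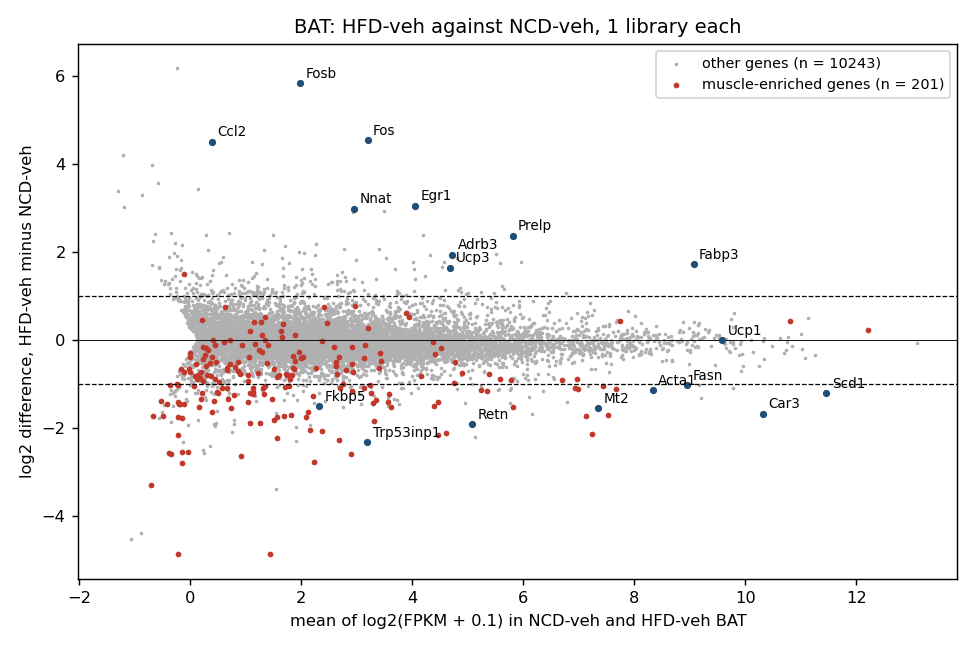
Each point is 1 gene at 1 FPKM or more in either library. The x axis is its mean log2(FPKM + 0.1), the y axis its log2 difference between HFD-veh and NCD-veh BAT, and dashed lines mark 2-fold. Most of the 201 muscle-enriched genes (red) lie below 0, Fosb, Fos and Ccl2 stand far above most of the 10243 other genes, and Ucp1 lies at 0. The unlabelled point above Fosb is Snhg9, listed at 0 in NCD-veh.

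Immediate-early genes, which encode transcription factors and regulators made within minutes of a stimulus, led the genes higher in HFD-veh. Fosb, a partner of Jun proteins in the AP-1 complex (chr7:19888070-19895394, minus strand, mm9), stood at 0.422 FPKM in NCD-veh against 29.8 in HFD-veh, with 25.3 in HFD-ncls. Its log2 difference between HFD-veh and NCD-veh was 5.84. Fos (chr12:86814840-86818223, plus strand, mm9), the founding member of the same family, stood at 1.80, 44.2 and 29.4 FPKM in the same order, a log2 difference of 4.54. Both HFD libraries were high, and the NCD library against which both are set was low. These low levels were not single fragments, since about 41.0 fragments of Fosb and 98.4 of Fos stood behind the NCD-veh values. Egr1, a zinc-finger transcription factor, was at 5.65, 47.8 and 34.5 FPKM, with a log2 difference of 3.06.

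Of 18 immediate-early genes listed, 17 reached 1 FPKM, and 10 of them were higher and 0 lower in HFD-veh, against 2.3% higher and 1.19% lower among the genes outside the muscle-enriched set. The list median was 1.14. The AP-1 partner Junb was at 8.59 FPKM in NCD-veh against 29.7 in HFD-veh, with 27.6 in HFD-ncls. Dusp1, a phosphatase that turns MAP kinases off, was at 10.2, 39.1 and 22.7 FPKM, and Zfp36, which speeds decay of cytokine mRNAs, at 19.1, 42.2 and 36.5 FPKM. The other genes over 2-fold were Egr2, Ier2, Btg2 and Atf3, with log2 differences of 2.25, 1.62, 1.11 and 1.74. Not every member was higher, as Fosl2 had a log2 difference of -0.65, Nr4a2 of -0.13 and Myc of -0.15. Nr4a1, a nuclear receptor also induced by cyclic AMP, had a difference of 0.25. In the other organs the same list had medians of 0.34 in WAT, 0.73 in liver and 0.80 in muscle, and 0 members were lower in any of them (3.87%, 2.27% and 0.97% of all genes were). The members higher in HFD-veh were 3 of 17 in WAT (5.24% of all genes), 4 of 12 in liver (2.86%) and 6 of 16 in muscle (3.14%).

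Many immediate-early promoters hold the cyclic AMP response element, whose full form reads TGACGTCA and whose shorter form reads TGACG, or CGTCA on the other strand. The full form contains both short forms. The RefSeq table of promoters (GRCm38.p6, a later build than mm9) held 8 of the 10 genes that were over 2-fold higher. Egr1 and Ier2 had no entry. In the 250 bases before the start, 7 of the 8 held TGACG on either strand and 2 held TGACGTCA, counting a gene with a match in any of its promoters. Counted the same way, these shares were 19.8% and 1.77% of the 27025 genes in the table, and 17.8% and 1.55% of its 32851 promoters. Promoters of the immediate-early genes that were not over 2-fold higher were not scanned. Whether a match goes with the difference between the diets, rather than with the choice of list, was therefore not tested. Egr2 had a match in 3 of 5 promoters. Zfp36 held neither. The stretches around the match nearest the start are shown for the AP-1 genes, Egr2 and Atf3, and for the genes with the full element, each in the direction of the gene with the match in capitals. Fos lies at chr12:85473794-85473858 (plus strand), Fosb at chr7:19310071-19310135 (minus), Junb at chr8:84978820-84978884 (minus), Egr2 at chr10:67537784-67537848 (plus), Atf3 at chr1:191183334-191183370 (minus), Btg2 at chr1:134079284-134079348 (minus) and Dusp1 at chr17:26508578-26508642 (minus). A match is a description of these letters, no other motif was looked for, and binding was not measured.
Fos: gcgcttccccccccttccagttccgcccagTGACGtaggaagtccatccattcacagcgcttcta
Fosb: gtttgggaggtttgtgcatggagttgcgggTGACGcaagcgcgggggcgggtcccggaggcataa
Junb: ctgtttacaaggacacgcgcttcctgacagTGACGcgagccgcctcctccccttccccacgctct
Egr2: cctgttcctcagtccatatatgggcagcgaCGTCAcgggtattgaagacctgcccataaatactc
Atf3: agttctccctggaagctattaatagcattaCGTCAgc
Btg2: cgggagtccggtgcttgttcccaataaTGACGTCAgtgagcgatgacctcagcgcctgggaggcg
Dusp1: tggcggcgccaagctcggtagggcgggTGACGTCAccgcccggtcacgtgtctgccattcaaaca

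Genes of adrenergic and cyclic AMP signalling showed unequal differences, and a link to the immediate-early genes was not tested. Adrb3, the adipocyte beta-3 receptor (chr8:28336248-28340060, minus strand, mm9), was at 13.4 FPKM in NCD-veh against 51.9 in HFD-veh, with 24.5 in HFD-ncls, a log2 difference of 1.95. In WAT the same gene went the other way, at 212 FPKM in NCD-veh and 67.0 in HFD-veh. Of the 15 adrenergic and cyclic AMP genes at 1 FPKM or more, 2 were higher and 1 lower, with a median of 0.05. Outside the muscle-enriched set, 2.3% of genes were higher and 1.19% lower. The higher ones were Adrb3 and Pde4b, a cyclic AMP phosphodiesterase at 1.64, 3.87 and 2.78 FPKM. The lower was Rgs2, a brake on G protein signalling at 80.2, 36.4 and 44.4 FPKM. Adrb1, the beta-1 receptor, was at 2.60, 3.81 and 2.93 FPKM. The catalytic subunit gene Prkaca and the abundant regulatory subunit gene Prkar2b had log2 differences of -0.27 and 0.02.

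Genes of thermogenesis included differences in both directions. Of 37 listed, 32 reached 1 FPKM, 3 were higher (2.28% of all genes) and 2 lower (2.01%), and the median was 0.16. Ucp1 differed by 0.00 on the log2 scale. Cidea, a lipid droplet protein abundant in brown fat, was at 1509 FPKM in NCD-veh against 1121 in HFD-veh, with 1269 in HFD-ncls. Ppargc1a, the coactivator of mitochondrial genes, was at 3.23, 2.42 and 2.83 FPKM, and Prdm16, a regulator of brown fat identity, at 1.16, 1.88 and 1.78 FPKM. Dio2, which makes active thyroid hormone, was low in all, at 1.32, 1.62 and 0.484 FPKM.

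The thermogenic genes over 2-fold apart were Fabp3, Ucp3, Adrb3, Elovl3 and Irf4. Fabp3, a fatty acid carrier of oxidative tissues (chr4:129985839-129992707, plus strand, mm9), was at 295 FPKM in NCD-veh against 976 in HFD-veh, with 1002 in HFD-ncls, a log2 difference of 1.73. It met the rule for muscle-enriched genes, but in HFD BAT it stood above its quadriceps level of 313 FPKM. Ucp3, a mitochondrial carrier related to Ucp1, was at 14.5, 45.6 and 58.8 FPKM, a log2 difference of 1.64. Elovl3, which lengthens fatty acids in brown fat, was lower at 18.6, 7.39 and 6.52 FPKM. Irf4, a transcription factor of fasting and thermogenesis, was also lower, at 6.06, 2.66 and 2.84 FPKM. In each of these the HFD-ncls library lay on the same side of NCD-veh as HFD-veh did, with both set against the same NCD-veh library.

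Genes of the respiratory chain, TCA cycle and beta-oxidation were not over 2-fold apart, against 4.29% of all genes that were. Of 71 nuclear genes of the respiratory chain and ATP synthase, 0 were over 2-fold, with a median of -0.03 and a range from -0.34 to 0.25. Of 22 genes of the TCA cycle and pyruvate dehydrogenase 0 were over 2-fold, and the largest difference was that of Idh2, a NADPH-making isocitrate dehydrogenase at 111, 198 and 218 FPKM. Among 20 genes of beta-oxidation, 17 lay above 0 and 0 passed 2-fold, with a median of 0.27. Cpt1a, the liver-type form of the enzyme that admits fatty acids to mitochondria, came closest at 2.02, 4.08 and 3.45 FPKM. Acaa2, which cuts the fatty acid chain, was at 718, 1010 and 980 FPKM. The median of the 20 was 0.28 after muscle transcripts were subtracted. The 72 cytosolic ribosomal protein genes at 1 FPKM or more held 0 over 2-fold, with a median of -0.09.

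**Figure D2:**
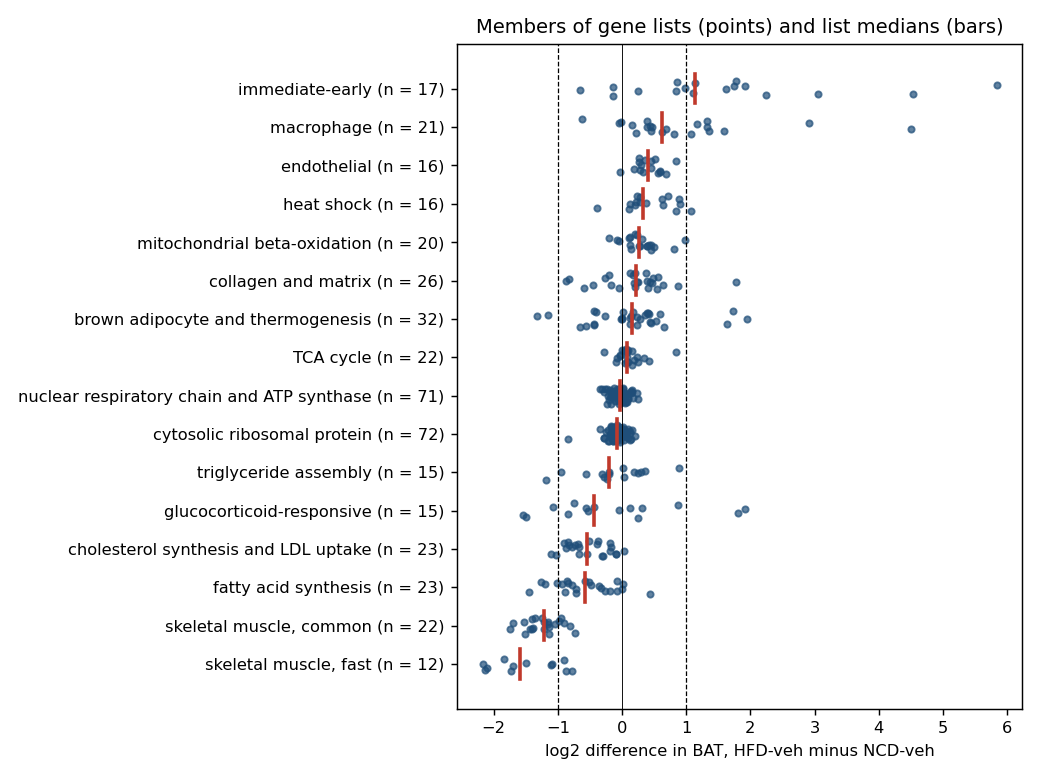
Points are members of 16 gene lists at 1 FPKM or more in either library, placed by their log2 difference between HFD-veh and NCD-veh BAT (x axis), and red bars are list medians. Dashed lines mark 2-fold. The immediate-early median is 1.14, fatty acid and cholesterol synthesis lie at -0.58 and -0.54, and the respiratory chain is gathered around -0.03.

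Genes of fatty acid synthesis were mostly lower in HFD-veh. All 23 listed genes reached 1 FPKM, 21 lay below 0, 4 were lower by over 2-fold (1.19% of genes outside the muscle-enriched set) and 0 were higher (2.3%), and the median was -0.58. Among the 10243 genes outside that set, 4646 lay above 0. Scd1, the desaturase that makes oleate (chr19:44468941-44482199, minus strand, mm9), was at 4265 FPKM in NCD-veh against 1855 in HFD-veh, with 1020 in HFD-ncls, a log2 difference of -1.20. Fasn, fatty acid synthase (chr11:120667254-120685492, minus strand, mm9), was at 705, 348 and 171 FPKM, a difference of -1.02. The related genes Scd2 and Scd3 had differences of -1.45 and -1.27, and any reads shared among the Scd genes could have been split differently. Acly, which supplies acetyl-CoA, was at 101, 54.6 and 22.6 FPKM. Acaca, the first committed enzyme, was at 68.9, 49.4 and 20.2 FPKM. In these 4 genes (Scd1, Fasn, Acly and Acaca) HFD-veh lay between NCD-veh and HFD-ncls.

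Regulators of fatty acid synthesis were not over 2-fold apart. Srebf1, the sterol-regulated factor, was at 16.7, 15.9 and 17.5 FPKM. Mlxipl, the carbohydrate-responsive factor ChREBP, was at 39.9, 54.2 and 51.8 FPKM. Slc2a4, the insulin-responsive glucose transporter, was at 87.7, 50.7 and 45.8 FPKM, a log2 difference of -0.79. The same 23 genes had a median of 1.48 over 22 genes in liver, where 16 were higher (2.86% of all genes) and 0 lower, and of -0.03 in WAT. The medians of liver and BAT lay on opposite sides of 0, which was not tested.

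Cholesterol synthesis genes also lay mostly below 0. Of 28 genes listed, 23 reached 1 FPKM and 22 lay below 0, with a median of -0.54. Among them 2 were lower by over 2-fold (1.19% of genes outside the muscle-enriched set) and 0 higher (2.3%). Of the 10243 genes outside that set, 4646 lay above 0. Insig1, which holds back the sterol-regulated factors and is itself their target, was at 69.6, 32.1 and 31.6 FPKM. Sqle, squalene epoxidase, was at 1.34, 0.604 and 0.476 FPKM. Fdft1, squalene synthase, was at 93.0, 49.6 and 63.8 FPKM, a log2 difference of -0.90. The medians were 1.22 in liver and 0.66 in WAT. Triglyceride assembly had a median of -0.20 over 15 genes, with Mogat1 the only one lower by over 2-fold, at 4.97, 2.12 and 2.01 FPKM.

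**Figure D3:**
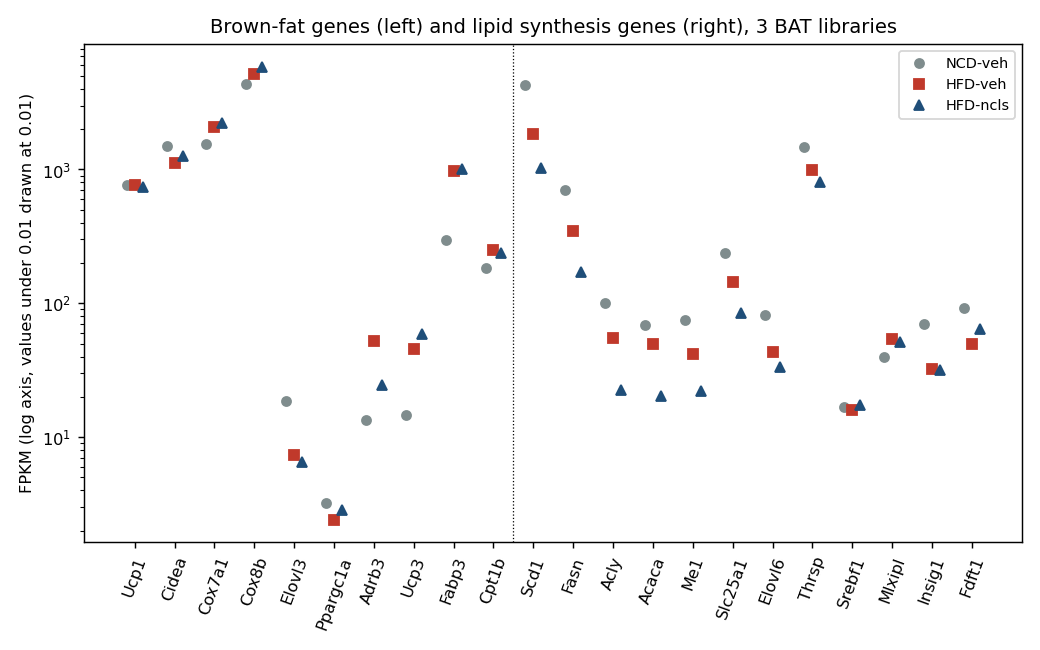
Levels in FPKM (log axis) of brown-fat genes, left of the dotted line, and lipid synthesis genes, right of it, in NCD-veh (grey circles), HFD-veh (red squares) and HFD-ncls (blue triangles) BAT, 1 library each. Ucp1 overlaps in the 3 libraries, Fabp3, Ucp3 and Adrb3 are lowest in NCD-veh, and Scd1, Fasn, Acly and Acaca step down from NCD-veh to HFD-ncls.

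Several macrophage genes were higher in HFD-veh. Of 36 listed, 21 reached 1 FPKM, 8 were higher (2.3% of genes outside the muscle-enriched set) and 0 lower (1.19%), and the median was 0.62. Ccl2, the chemokine that attracts monocytes (chr11:81849073-81850955, plus strand, mm9), was at 0.175, 6.14 and 1.40 FPKM, with about 3.68 fragments behind the NCD-veh value. Lgals3, galectin-3 of lipid-laden macrophages (chr14:47987426-48005835, plus strand, mm9), was at 2.68, 20.8 and 2.68 FPKM, a log2 difference of 2.91. Cd68, a lysosomal macrophage protein, was at 3.62, 9.15 and 2.60 FPKM, and Csf1r, the receptor for the macrophage growth factor, at 3.32, 3.30 and 2.60. The defining macrophage markers summed to 9.50 FPKM in NCD-veh against 17.9 in HFD-veh, with 7.71 in HFD-ncls. In these bulk libraries more cells and more RNA per cell cannot be told apart. In WAT 14 of 32 members were higher (5.24% of all genes), and Lgals3 went from 61.4 to 288 FPKM. Among T and B cell markers the sums were 1.15, 1.13 and 1.56 FPKM.

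The remaining genes with the highest ratios were mixed in function. Nnat, neuronatin, a small membrane protein of adipocytes and neurons, was at 2.65 FPKM in NCD-veh against 21.8 in HFD-veh, with 12.9 in HFD-ncls. Lep, the hormone leptin, was at 0.597, 3.68 and 2.13 FPKM, far under its WAT level of 1199 in HFD-veh. Ptgds, a prostaglandin D synthase, was at 3.97, 30.9 and 16.9 FPKM, and Prelp, a matrix proteoglycan, at 24.6, 127 and 82.3. Pmepa1, which restrains TGF-beta signalling, was at 7.89, 41.9 and 57.0 FPKM. Lgr6, a receptor for R-spondins, was at 2.16, 10.1 and 12.2 FPKM. Apold1, an endothelial early-response gene, was at 1.47, 6.76 and 4.07 FPKM. In all of these NCD-veh was the lowest of the 3 libraries, but the genes were picked for a low NCD-veh value against HFD-veh. HFD-ncls is set against that same NCD-veh library, so its place above NCD-veh is not independent. The noncoding Snhg9 was listed at 0 in NCD-veh and at 7.14 FPKM in HFD-veh.

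Among the genes with the lowest ratios, Sln and Csrp3 are muscle genes below the 10 FPKM minimum for muscle-enriched genes in quadriceps. Sln, sarcolipin, was at 9.42 FPKM in NCD-veh against 0.811 in HFD-veh, and HFD-ncls listed it at 0, and Csrp3 at 12.3, 1.74 and 0.264 FPKM. The muscle markers differed the same way. In quadriceps Sln was at 1.63 FPKM in NCD-veh and 0.997 in HFD-veh, and Csrp3 at 9.29 and 4.85. After the quadriceps share was subtracted, the log2 differences of Sln and Csrp3 in BAT were -3.39 and -2.76, against -3.39 and -2.75 as reported. The part of muscle RNA in these values was not tested otherwise. Of the others, Trp53inp1, a p53-induced autophagy protein, was at 20.3, 4.01 and 4.77 FPKM, and Slc43a1, a neutral amino acid transporter, at 8.16, 1.60 and 3.14. Sytl1, a vesicle-tethering protein, was at 7.33, 1.79 and 3.09 FPKM, and Mycl1, a Myc-family transcription factor, at 5.11, 1.56 and 2.21. Cyp2e1, a cytochrome that oxidizes ethanol and ketones, was at 75.1, 16.3 and 25.2 FPKM. Cyp2e1 is also a liver gene, and the hepatocyte markers summed to 0.0793 FPKM in NCD-veh and 0.114 in HFD-veh. Cyp2e1 stood at 1053 FPKM in NCD-veh WAT. The 6 white adipocyte markers summed to 71.0 FPKM in NCD-veh BAT against 45.0 in HFD-veh, with 34.5 in HFD-ncls. Retn alone was at 65.5, 17.4 and 18.0 FPKM of these sums. Agt was also lower in HFD-veh, Lep, Nnat and Hoxc8 were higher, and Hoxc9 was at 0. The part of liver or white adipocyte RNA in the Cyp2e1 values was not tested.

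Several adipocyte products were lower as well. Car3, carbonic anhydrase 3, was at 2282 FPKM in NCD-veh against 715 in HFD-veh, with 1172 in HFD-ncls. Retn, the hormone resistin, was at 65.5, 17.4 and 18.0 FPKM. Complement C3 was at 129, 40.0 and 55.0 FPKM, and Cfd, the complement protease adipsin, at 821, 404 and 853. Cfd differed from the rest in that HFD-ncls was not low. Of 14 white adipocyte genes at 1 FPKM or more, 4 were higher (Lep, Nnat, Npr3 and Ccnd1) and 3 lower (Retn, Car3 and Cfd). Outside the muscle-enriched set these shares were 2.3% and 1.19% of genes. The pan-adipocyte marker sums were 9954, 9524 and 9366 FPKM.

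Glucocorticoid-responsive genes included both directions. Of 15, 3 were lower (1.19% of genes outside the muscle-enriched set) and 2 higher (2.3%), with a median of -0.44. The related metal-binding metallothioneins Mt1 and Mt2 were at 1281, 605 and 691 FPKM and at 280, 95.5 and 84.9 FPKM. Fkbp5, a cochaperone of the glucocorticoid receptor, was at 8.29, 2.88 and 2.19 FPKM. The higher members were Dusp1, given above, and Lcn2, an iron-trafficking lipocalin at 0.378, 1.58 and 0.395 FPKM. The receptor itself, Nr3c1, was at 7.56, 7.33 and 8.22 FPKM.

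**Figure D4:**
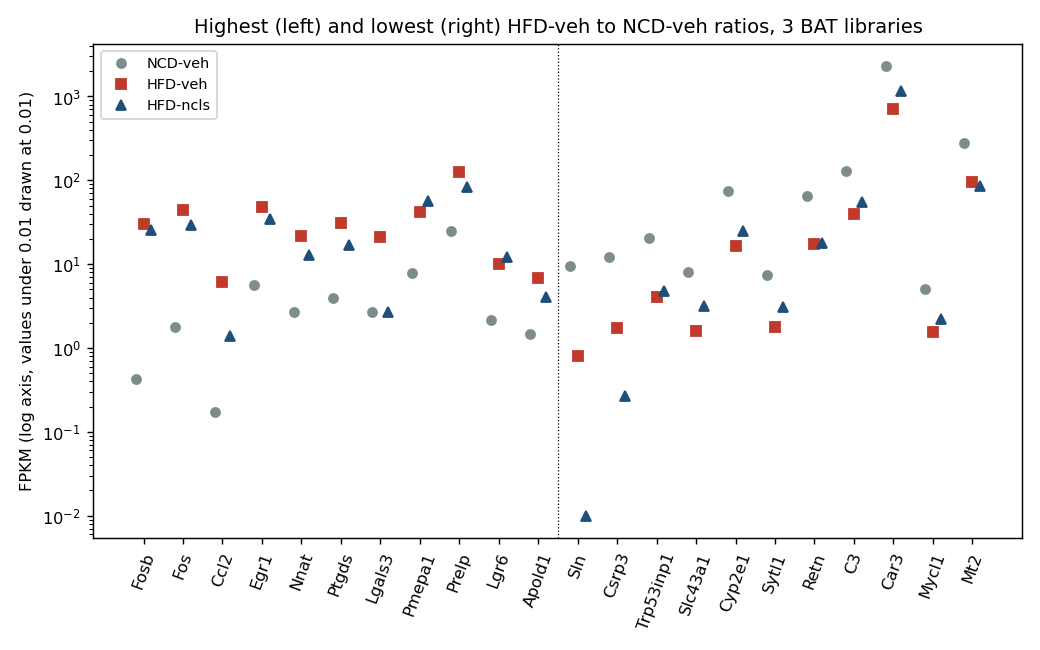
Levels in FPKM (log axis) of 11 of the 12 genes with the highest and 11 of the 12 with the lowest ratio of HFD-veh to NCD-veh BAT, muscle-enriched genes and Snhg9 left out, in NCD-veh (grey circles), HFD-veh (red squares) and HFD-ncls (blue triangles), 1 library each. HFD-ncls lies near HFD-veh for most genes, while for Lgals3 it lies at the NCD-veh level.

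Of the 210 genes lower in HFD-veh, 88 were muscle-enriched. Fast-twitch genes, 12 in all, were listed to gauge how much muscle RNA each library held. Of them 9 were lower by over 2-fold and 0 higher, with a median of -1.60. The share lower was 2.01% of all genes and 43.8% of muscle-enriched ones. Over the 11 with a muscle value, their BAT level was a median of 2.13% of the quadriceps level in NCD-veh against 0.779% in HFD-veh, with 0.111% in HFD-ncls. Acta1, skeletal actin, was at 478, 217 and 26.8 FPKM, and Mylpf, the fast regulatory light chain, at 314, 71.6 and 10.4. All 12 genes were highest in NCD-veh and lowest in HFD-ncls. The part of dissected muscle in these values was not tested. Of 22 common muscle genes at 1 FPKM or more, 17 were lower (43.8% of muscle-enriched genes) and 0 higher (0.995%).

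Not every muscle-enriched gene followed. Cox8b and Cox7a1, subunits of cytochrome oxidase shared by muscle and brown fat, had log2 differences of 0.23 and 0.43, and their BAT levels of 4380 and 1546 FPKM in NCD-veh exceeded those in quadriceps (1112 and 747). The 2 muscle-enriched genes over 2-fold higher were Fabp3 and 6430571L13Rik, the latter at 0.448, 1.46 and 1.05 FPKM. Slow-twitch genes also differed from fast-twitch ones. Their median was 0.01 over 11 genes. Of these, 3 were lower (Tnnt1, Myoz2 and Csrp3, against 2.01% of all genes) and 0 higher (2.28%). Tnnt1 was listed near 0 in both HFD BAT libraries, which can be a failed estimate. The list also holds Atp2a2 and Tpm3, which stood at 32.5 and 87.6 FPKM in NCD-veh WAT, so it is not a pure gauge of slow fibres. Tnnc1, slow troponin C, was at 4.78, 7.70 and 1.54 FPKM, and Myl2, the slow regulatory light chain, at 8.25, 12.1 and 1.03. The quadriceps values were 4.64 FPKM for Tnnc1 and 10.5 for Myl2 in NCD-veh, and 0.211 and 0.735 in HFD-veh. Both genes were higher in BAT than in quadriceps in HFD-veh, where the quadriceps library was low, and in NCD-veh Tnnc1 was about level and Myl2 lower.

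**Figure D5:**
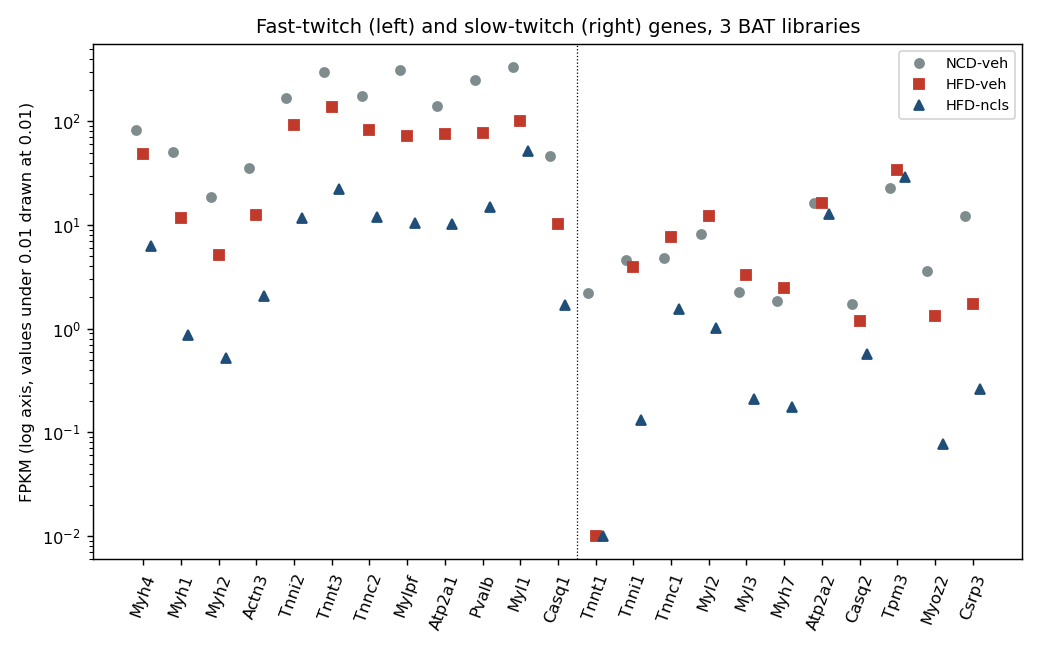
Levels in FPKM (log axis) of 12 fast-twitch genes, left of the dotted line, and 11 slow-twitch genes, right of it, in NCD-veh (grey circles), HFD-veh (red squares) and HFD-ncls (blue triangles) BAT, 1 library each. Values under 0.01 are drawn at 0.01. Fast-twitch genes step down from NCD-veh to HFD-veh to HFD-ncls, while Tnnc1, Myl2, Myl3 and Myh7 are highest in HFD-veh.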

How the data were processed

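Per the labels and the study's methods, the authors aligned the reads to mm9 with TopHat and used Cufflinks to quantify RefSeq genes. The deposited FPKM values are 1 per gene symbol and library. FPKM values are not counts, and no count test was applied. Libraries were assigned to organ and group from the sample labels. Gene positions are from GENCODE vM1 on the same build. Computations used Python 3.11.15, numpy 2.4.6, pandas 2.3.3 and matplotlib 3.10.9, and the scripts were tested on simulated data. Ratios used a pseudocount of 0.1 FPKM, which understates the change of low genes. The 71 genes without a value in at least 1 vehicle BAT library were left out. Fragment numbers were estimated from steps among low FPKM values and annotated lengths, and are approximate: 85.7% of 837 ratios lay on whole-number steps.

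Members and gene lists were chosen with earlier results of these data known. Genes were named as the 12 highest and the 12 lowest ratios at 5 FPKM or more in the higher library without muscle-enriched genes, with Snhg9 given apart because it was under 0.01 FPKM in NCD-veh, the members of 37 lists with the largest ratios and the highest levels (up to 4 of each), the BAT markers and the 6 most abundant muscle-enriched genes. Some genes that this rule picks are not reported here. Other genes named were chosen after their values were seen. Estimates near 0 can be failed ones, as for Rpl22 and Rpl26. Alternatives changed the pseudocount, the FPKM filter, the scaling and the handling of muscle-enriched genes.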

Additional observations from a re-analysis of the deposited data

Results flagged for a closer look

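Nnat lay on opposite sides of 0 in the fat depots under the same diet contrast. Its log2 difference between HFD-veh and NCD-veh was 2.99 in BAT, at 2.65 and 21.8 FPKM, and -1.62 in WAT, at 1180 FPKM in NCD-veh and 384 in HFD-veh. Each value rests on 1 library a group, and the difference between the depots was not tested.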

How the results depend on the processing

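With no replicates, a gene or list median was taken to move where it crossed 2-fold, and a count where it differed by over 1.5 times. No recomputed gene value or list median over 2-fold changed sign under any alternative. Of 10243 genes outside the muscle-enriched set, 236 were higher and 122 lower in HFD-veh. These counts were 104 and 64 with a pseudocount of 1 FPKM, 102 and 63 of 5566 genes at 5 FPKM or more, and 484 and 318 of 21904 genes with no filter. With muscle-enriched genes kept, 210 of 10444 were lower. The 88 lower muscle-enriched genes became 49 with a pseudocount of 1. Rescaling by the median ratio gave 259 higher and 109 lower, and subtracting the muscle share gave 253 and 119. The median of 21 macrophage genes, 0.62, was 1.08 over the 11 at 5 FPKM or more and 0.39 with a pseudocount of 1. Medians of the small neutrophil and hepatocyte lists came within 2-fold, at -0.80 and -0.98, with a pseudocount of 1, and the muscle-enriched median of -0.85 was -1.15 at 100 times and -0.30 at 5 times, where 89 of 426 genes were lower against 88 of 201. All 192 recomputed gene values and 140 of the list medians kept their side of 2-fold. With a pseudocount of 1 the log2 differences of Fosb, Ccl2 and Sln were 4.44, 2.60 and -2.53. The respiratory chain median was 0.01 after rescaling, and that of the unfolded protein list 0.02 after rescaling and 0.21 after muscle subtraction, against -0.02 as reported. No paired analysis was possible because each group had 1 library. Leaving out a library was likewise not possible. Depth near 25000000 fragments left genes such as Ccl2 in NCD-veh on about 3.68 fragments.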

Other observations

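Endothelial and heat shock genes mostly lay above 0, against 4646 of the 10243 genes outside the muscle-enriched set. For the counts below, 2.28% of all genes were higher and 2.01% lower by over 2-fold. Of 16 endothelial genes, 15 lay above 0 and 0 were over 2-fold, with a median of 0.40. Cldn5, a tight-junction protein of vessels, was at 26.0 FPKM in NCD-veh against 46.6 in HFD-veh, with 46.4 in HFD-ncls. Of 16 heat shock genes, with a median of 0.33, 15 lay above 0 and 1, Hspa1a, was over 2-fold, at 0.567, 1.30 and 0.787 FPKM. Among 25 genes of the unfolded protein and integrated stress responses, 3 were higher (Atf3, Phgdh and Gdf15) and 1 lower (Herpud1, a membrane protein of protein disposal, at 88.8, 33.0 and 42.6 FPKM). Of 26 matrix genes, 1 was higher, Thbs1, thrombospondin 1, at 0.695, 2.63 and 1.51 FPKM. Collagens Col1a1 and Col3a1 had log2 differences of -0.18 and 0.24. The 7 MHC class II genes and the 14 interferon-stimulated genes held 0 over 2-fold.

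Some genes chosen after their values were seen also stood apart. Tusc5, which aids traffic of the insulin-responsive glucose transporter, was at 23.1 FPKM in NCD-veh against 89.6 in HFD-veh, with 97.1 in HFD-ncls. Slc25a42, a mitochondrial carrier of coenzyme A, was at 25.9, 87.6 and 79.4 FPKM. Glul, glutamine synthetase, was at 925, 370 and 476 FPKM. S100b, a calcium-binding protein, was at 33.7, 116 and 90.3 FPKM.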
